A study of Mus musculus with 6 samples.

Results

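Molecular chaperones were followed as a set of 34 genes, taken by symbol from a list of names among the 25751 gene IDs of the count table. The rule uses no measured value, but the list was drawn up with earlier results of these data known, which limits what its shares below can show. All 34 were in the table, and all 34 were among the 14626 genes with enough counts to be tested. The set holds the cytosolic HSP70, HSP110, HSP40, HSP90 and small heat shock protein genes with several of their cochaperones, the 8 subunits of the CCT chaperonin, and the heat shock factors Hsf1 and Hsf2. Its members Hspa9, Hspd1 and Hspe1 encode mitochondrial chaperones, so the set is not cytosolic throughout.

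The data are RNA-seq gene counts from primary wild-type (WT) mouse cells labelled as myeloid, in 3 control libraries and 3 libraries treated with TMAO (trimethylamine N-oxide), all at 24 h. The question the series poses is how TMAO affects the transcripts of these cells. TMAO is a small osmolyte made in the liver from a product of gut bacteria, and it is also known to stabilise folded proteins in solution. The labels give neither the dose nor how the cells were isolated. The treated samples carry the description T-BMDM and the controls the description Control, and this difference in naming is not explained, so a difference in the origin of the cells and the treatment cannot be told apart. The labels tie no library to a culture or an animal of its own. The p-values therefore measure only how these libraries vary, and part or all of that variation may be technical.

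HSP70 proteins bind exposed hydrophobic stretches of unfolded clients in a cycle driven by ATP, HSP40 proteins bring clients and stimulate the ATPase, and HSP110 and BAG proteins exchange the nucleotide. HSP90 acts later, on nearly folded clients such as kinases and nuclear receptors, and CCT encloses newly made actin and tubulin in a double ring. Under heat or proteotoxic stress HSF1 forms trimers, binds heat shock elements in promoters and raises the inducible members, while many other members are constitutive and follow the rate of protein synthesis.

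Chaperone transcripts were more abundant in the TMAO libraries. The summed level of the 34 genes was 6031 to 6532 CPM (counts scaled to a library of 1000000) in the control libraries and 8634 to 8890 CPM in the TMAO libraries. By edgeR's quasi-likelihood test at an adjusted p under 0.05, 21 of 34 members (61.8%) rose, 3 (8.82%) fell and 10 did not pass. Over all genes tested, 65.7% passed in either direction, with 33.0% that rose and 32.7% that fell. The 3 that fell were Hspa2, Hspa4l and Hsf2. The median log2 fold change of the members was 0.50, and that of all genes was 0.005. The members ranged from -1.21 to 1.28, and only Hspa9, Hspa1a and Cct3 rose at least 2-fold (3 of 34, 8.82%, against 15.7% of all genes), while Hspa4l alone fell that far (2.94% against 14.7%). Tested against a fold of 1.5 rather than 1, 7 members were higher, or 20.6%, close to the 18.0% of all genes, so the large share that rose was one of modest changes. In 23 members all 3 TMAO libraries were above all 3 controls, and in 4 (Hspa2, Hspa4l, Dnaja1 and Hsf2) they were all below (67.6% and 11.8%). Over all genes 71.0% had groups that did not overlap, 35.6% with TMAO higher and 35.4% with TMAO lower.

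**Figure D1:**
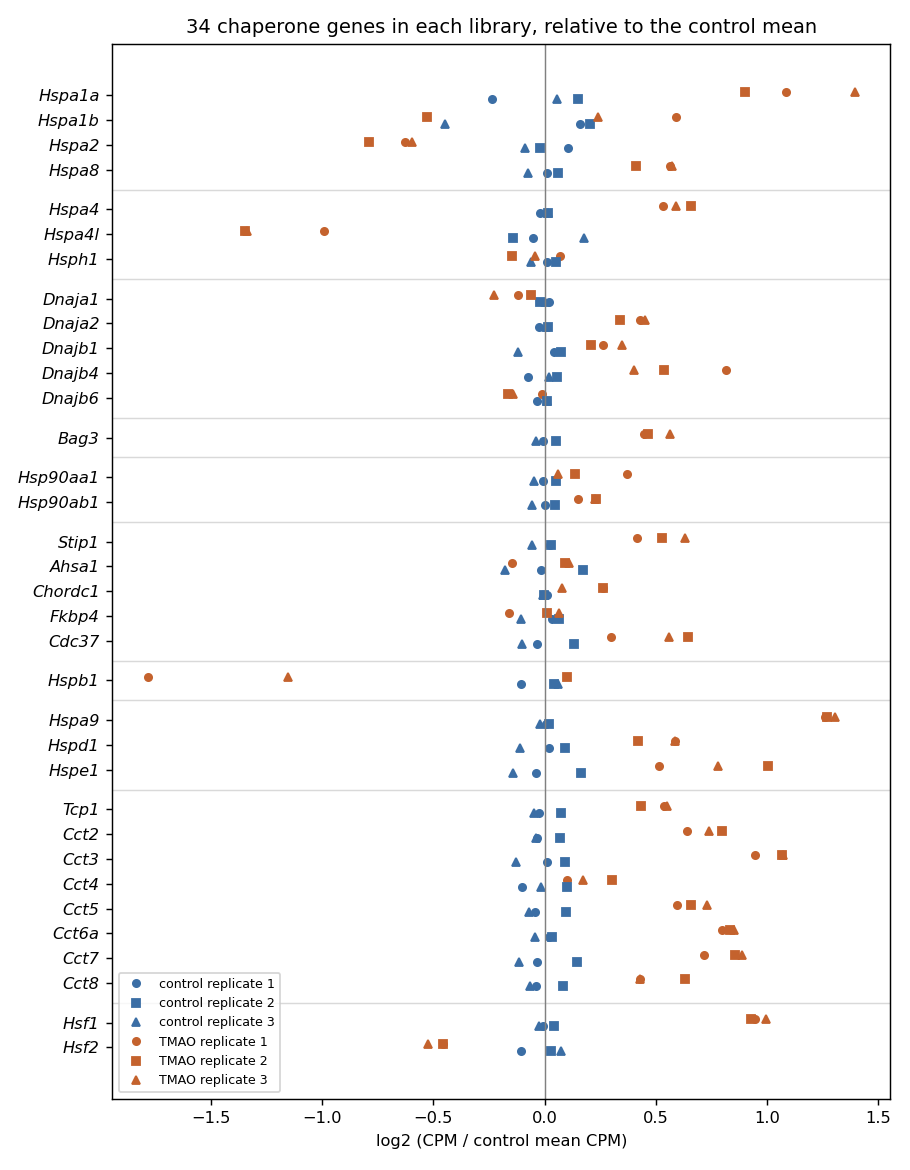
Level of each of the 34 members in each library, as the log2 of its CPM over the mean of the 3 control libraries (horizontal axis). Blue symbols are control and orange symbols TMAO libraries, grey lines separate the roles, and most orange symbols of the mitochondrial and CCT rows lie to the right of the blue ones, while Hspa2, Hspa4l and Hsf2 lie to the left.

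Marker genes moved between the groups much more than the chaperones did. Of 15 neutrophil and granulocyte precursor markers 14 rose (summed level 311 to 348 CPM in controls, 4450 to 5734 CPM with TMAO), as did 7 of 7 monocyte markers (177 to 227 against 1013 to 1066 CPM) and 12 of 12 cell division genes (51.5 to 53.7 against 377 to 436 CPM). Of 10 macrophage markers 4 rose (C1qa, C1qb, C1qc and Mrc1) and 5 fell (8622 to 9188 against 6509 to 6788 CPM). The calls of C1qc (edgeR adjusted p = 0.0498) and Csf1r (edgeR adjusted p = 0.0303) were not firm. Their signs turned in some alternative settings (log2 fold change down to -0.23 for C1qc and up to 0.08 for Csf1r). The myeloid and macrophage genes Csf1r, Cd68 and Adgre1 were present in all 6 libraries but were among those that fell (0.824-, 0.570- and 0.309-fold). Mertk and Fcgr1 fell further (0.101- and 0.239-fold). Over all genes tested, 33.0% rose and 32.7% fell. Of 6 B cell markers 5 rose from a low level (2.44 to 3.58 against 11.7 to 15.8 CPM, with Pax5 at 0 in the controls), and 4 of 4 megakaryocyte markers tested rose (42.2 to 64.9 against 351 to 535 CPM). The part of these shifts in the chaperone results was not tested. In bulk libraries, fewer cells of a type and less RNA per cell cannot be told apart.

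The promoters are shown first because HSF1 binds heat shock elements. Of the 34 members, 28 were matched to RefSeq promoter windows of build GRCm38.p6, which run from 250 bases before to 50 bases after each start; Hspa8, Hspa9, Hsp90aa1, Hsp90ab1, Hsf1 and Cct4 were not matched. The element was searched on both strands as alternating GAA and TTC units, each separated by 2 bases. A pair of units reads GAANNTTC or TTCNNGAA, each of which is its own reverse complement, and a run of 3 units holds both of these in overlap. A run of 3 units was found in 5 of the 28 members (17.9%: Hspd1, Hspe1, Dnajb6, Hsph1 and Chordc1) and in 179 of all 27025 genes of the RefSeq promoter table (0.662%). A pair of units was found in 16 of 28 members (57.1%) and in 17.0% of all genes of that promoter table. A match describes the letters only, and a window without one says only that these letters are not in it. In the next lines the capitals mark the heat shock element, and each sequence reads 5′ to 3′ on the strand given.
Hspe1 and Hspd1, all bases between their starts, chr1:55088025-55088131, plus strand: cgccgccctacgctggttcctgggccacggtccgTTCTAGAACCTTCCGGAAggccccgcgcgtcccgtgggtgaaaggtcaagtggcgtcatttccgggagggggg
Dnajb6, chr5:29735844-29735873, plus strand: agctccgaGAATCTTCCGGAAcgctagacc
Hsph1, chr5:149636287-149636316, minus strand: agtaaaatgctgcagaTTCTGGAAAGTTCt
Chordc1, chr9:18292260-18292289, plus strand: ccgGAACGTTCGGGAAAATTCCTGAAgcag
Hspa1a, chr17:34972227-34972286, minus strand: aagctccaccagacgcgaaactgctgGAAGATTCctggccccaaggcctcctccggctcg
Hspa1b, chr17:34959309-34959368, minus strand: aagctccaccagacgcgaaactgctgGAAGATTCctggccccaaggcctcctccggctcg
The Hspe1 and Hspd1 genes lie head to head and share 1 element, 18 bases long, so these genes are not 2 separate cases. The Chordc1 run, 23 bases long, is the longest of the 5. The Hspa1a and Hspa1b stretches are identical, and over the whole 250 bases before the start the pair differed at few positions (247 of 250 identical, 98.8%).

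Genes with a run of 3 units were found both among those that rose and among those that did not pass. Of the 5 with a run of 3 units, Hspe1 and Hspd1 rose, whereas Hsph1, Dnajb6 and Chordc1 did not pass the test. By status, a run of 3 units was in 2 of 17 matched members that rose, 0 of 3 that fell and 3 of 8 that did not pass. None of the 7 CCT subunits matched had a run of 3 units, and 3 of the 7 had a pair. These counts are small and are given without a test.

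Among the HSP70 genes the constitutive member carried most of the transcript, and the stress-inducible pair stayed near the bottom of the range. Hspa8 (ENSMUSG00000015656), the constitutive HSC70, had 1865, 1928 and 1756 CPM in the control libraries and 2734, 2462 and 2748 CPM in the TMAO libraries. All TMAO libraries were above all controls. It rose 1.43-fold (log2 fold change 0.52, SE 0.09, edgeR adjusted p = 0.000435).

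Hspa1a (ENSMUSG00000091971), 1 of the 2 nearly identical inducible HSP70 genes, had 0.849, 1.11 and 1.04 CPM in controls and 2.12, 1.87 and 2.63 CPM with TMAO. The groups did not overlap, but the counts behind these levels were only 33 to 46 in controls and 68 to 101 with TMAO. It rose 2.20-fold (log2 fold change 1.14, SE 0.25, edgeR adjusted p = 0.00228). Hspa1b (ENSMUSG00000090877), its neighbour, had 2.88, 2.97 and 1.89 CPM in controls and 3.89, 1.79 and 3.05 CPM with TMAO. Its groups overlapped, with TMAO replicate 2 below every control (log2 fold change 0.18, SE 0.29, edgeR adjusted p = 0.613).

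A counting tool may divide or drop the reads that match both genes of this pair. Of 2868 windows of 100 bases along the Hspa1a transcript, 1350 (47.1%) were found letter for letter in the Hspa1b transcript, and the same 1350 made up 49.9% of the windows of Hspa1b. The summed pair had 3.73, 4.08 and 2.93 CPM in controls and 6.0, 3.66 and 5.68 CPM with TMAO. TMAO replicate 2 lay inside the control range, and the sum did not pass the test (1.43-fold, log2 fold change 0.52, SE 0.22, edgeR adjusted p = 0.0568). The call for Hspa1a on its own is uncertain for this reason.

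The sum of the inducible pair was small beside Hspa8 in every library. Its log2 ratio to Hspa8 was -9.02 ± 0.18 (SD, n = 3) in controls and -9.05 ± 0.30 (SD, n = 3) with TMAO. The difference of -0.02 was within the spread of the libraries (exact permutation test, two-sided, p = 0.90, where 3 against 3 allows no p below 0.10). Hspa2 (ENSMUSG00000059970), an HSP70 best known from male germ cells, had 9.75, 8.94 and 8.53 CPM in controls and 5.88, 5.25 and 6.0 CPM with TMAO. It fell in all TMAO libraries below all controls (0.630-fold, log2 fold change -0.67, SE 0.13, edgeR adjusted p = 0.00116).

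The HSP110 genes, which encode large HSP70 relatives that act as nucleotide exchange factors, went separate ways. Hspa4 (ENSMUSG00000020361) had 204, 209 and 209 CPM in controls and 299, 327 and 312 CPM with TMAO, with a wide gap between the groups. It rose 1.51-fold (log2 fold change 0.60, SE 0.08, edgeR adjusted p = 7.87e-05). Hspa4l (ENSMUSG00000025757), its close relative, had 39.3, 36.9 and 46.0 CPM in controls and 20.5, 16.0 and 16.1 CPM with TMAO. It fell in all TMAO libraries below all controls (0.431-fold, log2 fold change -1.21, SE 0.13, edgeR adjusted p = 1.75e-05). Its transcript is long, and once a trend of fold change on transcript length was taken out the fall was smaller (0.705-fold, log2 fold change -0.50, edgeR adjusted p = 0.000187, range over alternatives 9.25e-21 to 0.000408), and less than that of Hspa2 in the same setting (log2 fold change -0.77). Hsph1, the stress-inducible HSP110, had 68.2, 70.1 and 65.0 CPM in controls and 71.1, 61.2 and 65.8 CPM with TMAO. Its groups overlapped (log2 fold change -0.04, SE 0.09, edgeR adjusted p = 0.735), and its sign turned and it passed once the length trend was taken out (log2 fold change 0.25, edgeR adjusted p = 0.0112, range over alternatives 0.0112 to 1.00).

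**Figure D2:**
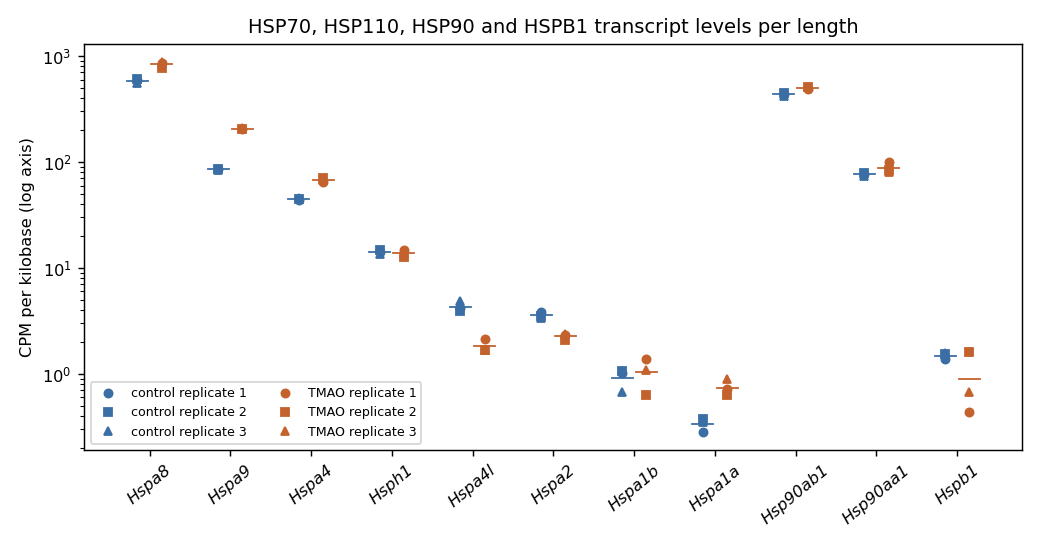
Levels of the HSP70, HSP110, HSP90 and HSPB1 genes in each library, as CPM per kilobase of the longest annotated transcript on a log axis, so that genes can be compared. Horizontal bars are group means (n = 3), blue is control and orange TMAO, and Hspa8 and Hsp90ab1 stand highest while Hspa1a, Hspa1b and Hspb1 lie lowest.

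Per kilobase of longest transcript, the HSP70 and HSP110 levels kept nearly the same order in the controls and with TMAO. Hspa8 stood first (586 ± 27.7 in controls and 838 ± 51.2 CPM per kilobase with TMAO, SD, n = 3), followed by the mitochondrial Hspa9 (85.0 ± 1.36 and 206 ± 3.42), then Hspa4 and Hsph1. Hspa4l was above Hspa2 in controls (4.30 against 3.59 CPM per kilobase) and below it with TMAO (1.85 against 2.26). Hspa1b and Hspa1a were last, at 0.921 and 0.337 CPM per kilobase in controls and 1.04 and 0.744 with TMAO. With TMAO the libraries of the Hspa1 pair overlapped each other, as did those of Hspa4l and Hspa2, so those neighbours are not clearly ordered there. This order depended on the transcript that gave the length. By the median transcript length Hspa4l was above Hspa2 in controls (30.4 against 3.59 CPM per kilobase) and with TMAO (13.1 against 2.26). Hsph1 was then above Hspa4 in controls (90.1 against 67.4) and below it with TMAO (87.8 against 102).

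Of the 5 HSP40 genes, which encode J-domain partners of HSP70, 3 rose and none fell, where 33.0% of all genes rose and 32.7% fell. Dnaja2 had 179, 184 and 183 CPM in controls and 245, 230 and 249 CPM with TMAO (1.32-fold, log2 fold change 0.41, SE 0.08, edgeR adjusted p = 0.00102). Dnajb4 had 24.3, 26.6 and 26.0 CPM in controls and 45.0, 37.2 and 33.8 CPM with TMAO (1.51-fold, log2 fold change 0.59, SE 0.12, edgeR adjusted p = 0.00113). In both genes every TMAO library was above every control.

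Dnajb1, the main stress-inducible HSP40 and an established HSF1 target, changed little. Its promoter window held neither a run of 3 units nor a pair. Dnajb1 had 36.1, 36.8 and 32.2 CPM in controls and 42.0, 40.4 and 44.5 CPM with TMAO. The groups did not overlap and it rose 1.21-fold (log2 fold change 0.27, SE 0.09, edgeR adjusted p = 0.0263), but the call was lost without control replicate 1 (edgeR adjusted p = 0.0728), without control replicate 3 (0.111) and without TMAO replicate 3 (0.108), and over all its alternatives the adjusted p ran from 0.00317 to 1.00.

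Dnaja1 and Dnajb6 did not pass the test. Dnaja1 had 153, 149 and 151 CPM in controls and 139, 145 and 129 CPM with TMAO, so that every TMAO library was below every control by a small margin (log2 fold change -0.13, SE 0.08, edgeR adjusted p = 0.171). Taking out the length trend turned its sign, and it then passed (log2 fold change 0.28, edgeR adjusted p = 0.00921, range over alternatives 0.00250 to 1.00). Dnajb6, which holds back aggregation of clients and carries the 3-unit element shown above, had 136, 140 and 140 CPM in controls and 138, 124 and 126 CPM with TMAO. Its groups overlapped through TMAO replicate 1 (log2 fold change -0.10, SE 0.08, edgeR adjusted p = 0.304). With the trend on principal-transcript length taken out, Dnajb6 passed as lower (log2 fold change -0.42, edgeR adjusted p = 0.00119).

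Bag3, an exchange factor of HSP70 that directs clients to selective autophagy, rose. It had 51.0, 53.0 and 49.8 CPM in controls and 69.9, 70.7 and 75.8 CPM with TMAO, with no overlap (1.41-fold, log2 fold change 0.49, SE 0.08, edgeR adjusted p = 0.000464).

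The HSP90 genes moved little, and the balance between the inducible and the constitutive gene did not shift beyond the spread. Hsp90ab1 (ENSMUSG00000023944), the constitutive HSP90 beta, had 1104, 1138 and 1060 CPM in controls and 1223, 1291 and 1288 CPM with TMAO. It rose 1.15-fold (log2 fold change 0.20, SE 0.08, edgeR adjusted p = 0.0450). This call was close to the threshold: leaving out control replicate 1, 2 or 3 or TMAO replicate 2 or 3 ended it (edgeR adjusted p = 0.153, 0.0714, 0.140, 0.0623 and 0.138), and so did library size as the only scaling (0.0658), with a range over all alternatives of 0.0293 to 1.00. Hsp90aa1 (ENSMUSG00000021270), the inducible HSP90 alpha, had 251, 261 and 244 CPM in controls and 326, 277 and 263 CPM with TMAO. The groups did not overlap, but TMAO replicate 1 stood well above the other two and the test was not passed (log2 fold change 0.19, SE 0.10, edgeR adjusted p = 0.101). It passed with the length trend taken out (0.22, edgeR adjusted p = 0.0341, and 0.31 by principal transcript, edgeR adjusted p = 0.00317) and with the GC trend taken out (0.38, edgeR adjusted p = 0.00463), and its range over alternatives was 0.00317 to 1.00.

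The log2 ratio of Hsp90aa1 to Hsp90ab1 was -2.14, -2.12 and -2.12 in the controls and -1.91, -2.22 and -2.29 in the TMAO libraries. The controls lay close together, and the TMAO libraries lay on both sides of them. The difference of means was -0.02 (exact permutation test, two-sided, p = 1.00, where the smallest p possible is 0.10). Per kilobase of longest transcript, Hsp90ab1 stood at 437 ± 15.4 in controls and 503 ± 15.3 CPM per kilobase with TMAO (SD, n = 3), and Hsp90aa1 at 76.8 ± 2.56 and 87.9 ± 10.1.

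Of the 5 HSP90 cochaperones, 2 rose and 3 did not pass, where 33.0% of all genes rose. Stip1, or HOP, which hands clients from HSP70 to HSP90, had 93.9, 94.3 and 88.7 CPM in controls and 123, 133 and 143 CPM with TMAO (1.44-fold, log2 fold change 0.53, SE 0.09, edgeR adjusted p = 0.000363). Cdc37, which loads kinases onto HSP90, had 173, 194 and 165 CPM in controls and 218, 277 and 261 CPM with TMAO (1.42-fold, log2 fold change 0.51, SE 0.11, edgeR adjusted p = 0.00199). Neither gene had overlapping groups. The longest annotated Cdc37 transcript has 7851 bases, and after the length trend was taken out its fold was 2.18 (log2 fold change 1.12, edgeR adjusted p = 7.00e-05, range over alternatives 2.07e-05 to 0.789). The upper end came from the test against a fold of 1.5, and Cdc37 passed in every other alternative.

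Chordc1, an HSP90 partner with the long heat shock element shown above, had 44.7, 44.3 and 44.2 CPM in controls and 53.3, 53.3 and 46.9 CPM with TMAO. All TMAO libraries were above the narrow range of the controls, without passing the test (log2 fold change 0.20, SE 0.09, edgeR adjusted p = 0.0670). It passed after removal of the length trend (log2 fold change 0.64, edgeR adjusted p = 5.32e-05, range over alternatives 2.13e-05 to 1.00). Ahsa1, the activator of the HSP90 ATPase, had 89.6, 102 and 80.2 CPM in controls and 81.9, 96.7 and 97.8 CPM with TMAO (log2 fold change 0.02, SE 0.11, edgeR adjusted p = 0.859), and the sign of this small value turned to -0.01 with library size as the only scaling. With the trend on principal-transcript length taken out, Ahsa1 passed as lower (log2 fold change -0.37, edgeR adjusted p = 0.000640). Fkbp4, the steroid receptor immunophilin FKBP52, had 68.4, 69.9 and 62.0 CPM in controls and 59.8, 67.4 and 69.9 CPM with TMAO (log2 fold change -0.02, SE 0.10, edgeR adjusted p = 0.842). With the GC trend taken out, Fkbp4 passed as lower (log2 fold change -0.22, edgeR adjusted p = 0.0391). In Ahsa1 and Fkbp4 the libraries of the groups were interleaved.

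Hspb1, the small heat shock protein HSP27, was low in all libraries. It had 1.29, 1.43 and 1.45 CPM in controls and 0.404, 1.49 and 0.626 CPM with TMAO, from 50 to 60 counts in controls and 16, 54 and 24 counts with TMAO. TMAO replicate 2 was above every control and the others were below (log2 fold change -0.74, SE 0.42, edgeR adjusted p = 0.149). Without TMAO replicate 2 the fall passed the test (log2 fold change -1.43, edgeR adjusted p = 0.00523, range over alternatives 0.00523 to 0.404). With all libraries kept it passed with the length trend taken out, by longest transcript (log2 fold change -1.22, edgeR adjusted p = 0.0157) and by principal transcript (-1.32, edgeR adjusted p = 0.00602).

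All 3 mitochondrial chaperone genes rose, where 33.0% of all genes rose. Hspa9 (ENSMUSG00000024359), or mortalin, the HSP70 that pulls precursors into the matrix, had 260, 263 and 255 CPM in controls and 621, 624 and 641 CPM with TMAO. The libraries of each group lay very close together and far from the other group. It rose 2.43-fold, the most of any member (log2 fold change 1.28, SE 0.08, edgeR adjusted p = 3.90e-07).

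Hspd1 (ENSMUSG00000025980) and Hspe1 (ENSMUSG00000073676) encode HSP60 and its lid HSP10, which fold proteins in the mitochondrial matrix. Hspd1 had 138, 145 and 126 CPM in controls and 204, 182 and 204 CPM with TMAO (1.44-fold, log2 fold change 0.53, SE 0.09, edgeR adjusted p = 0.000420). Hspe1 had 67.5, 77.6 and 62.8 CPM in controls and 99.0, 139 and 119 CPM with TMAO (1.72-fold, log2 fold change 0.78, SE 0.13, edgeR adjusted p = 0.000407). Both genes were higher in every TMAO library than in any control, and they share the stretch between their starts that is printed above. Hspe1 has a short transcript, and removal of the trend on principal-transcript length left a log2 fold change of 0.20 (edgeR adjusted p = 0.0126). By longest transcript it left 0.33 (edgeR adjusted p = 0.00206, range over alternatives 5.59e-11 to 0.0683). The upper end came from the test against a fold of 1.5, and Hspe1 passed in every other alternative.

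The CCT subunits rose almost as a whole. Of the 8 subunits 7 rose, against 33.0% of all genes tested, and Cct4 did not pass. The median log2 fold change of the 8 was 0.69, against 0.005 over all genes. The summed level of the 8 was 1126 to 1250 CPM in controls and 1772 to 1908 CPM with TMAO. In 7 of 8 the groups did not overlap, all with TMAO higher, against 71.0% of all genes in either direction and 35.6% with TMAO higher. The cell division genes moved in the same direction (51.5 to 53.7 CPM in controls and 377 to 436 CPM with TMAO), and their part in the CCT result was not tested.

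Cct3 (ENSMUSG00000001416), the gamma subunit, had 108, 114 and 98.0 CPM in controls and 206, 224 and 225 CPM with TMAO. It rose 2.05-fold, the most of the 8 (log2 fold change 1.03, SE 0.09, edgeR adjusted p = 4.19e-06). Cct6a, the zeta subunit, had 136, 137 and 130 CPM in controls and 233, 239 and 242 CPM with TMAO (1.78-fold, log2 fold change 0.83, SE 0.08, edgeR adjusted p = 6.86e-06). Cct7, the eta subunit, had 129, 146 and 122 CPM in controls and 217, 239 and 244 CPM with TMAO (1.76-fold, edgeR adjusted p = 3.42e-05). In these 3 subunits the lowest TMAO library stood far above the highest control.

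Cct2, the beta subunit, had 179, 192 and 178 CPM in controls and 285, 318 and 305 CPM with TMAO (1.65-fold, edgeR adjusted p = 2.92e-05). Cct5, the epsilon subunit, had 165, 182 and 162 CPM in controls and 257, 268 and 282 CPM with TMAO (1.58-fold, edgeR adjusted p = 6.45e-05). These were the most abundant subunits per kilobase of longest transcript, at 93.5 and 91.5 CPM per kilobase in controls and 155 and 145 with TMAO, and their values did not separate from each other in the controls.

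Tcp1, the alpha subunit, had 127, 136 and 125 CPM in controls and 187, 174 and 189 CPM with TMAO (1.42-fold, edgeR adjusted p = 0.000335). Cct8, the theta subunit, had 152, 165 and 149 CPM in controls and 210, 242 and 210 CPM with TMAO (1.42-fold, edgeR adjusted p = 0.000670). Cct4 (ENSMUSG00000007739), the delta subunit, was the 1 subunit that did not pass. It had 155, 178 and 164 CPM in controls and 178, 205 and 187 CPM with TMAO, and the groups met at TMAO replicate 1 and control replicate 2. Its 1.15-fold difference did not pass (log2 fold change 0.20, SE 0.09, edgeR adjusted p = 0.0816). Without TMAO replicate 1 it passed (edgeR adjusted p = 0.0453), as it did with a trend on GC content removed (log2 fold change 0.35, edgeR adjusted p = 0.00737), and the range over its alternatives was 0.00737 to 1.00. Whether the change of Cct4 differs from that of the other subunits was not tested.

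**Figure D3:**
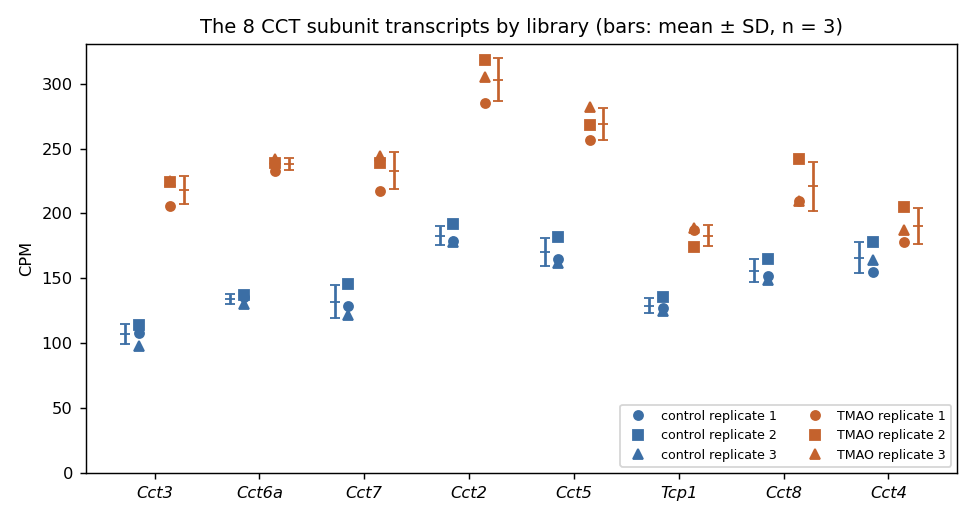
Levels of the 8 CCT subunit genes in each library in CPM, ordered by fold change, with the mean ± SD of each group (n = 3) beside the points. Orange TMAO libraries lie above blue control libraries in 7 subunits, and in Cct4 at the right the ranges meet.

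The levels per kilobase, and part of the order of the subunits, depended on which transcript gave the length. With the longest transcript, Tcp1, Cct7 and Cct3 were the lowest in controls, with 37.8 CPM per kilobase for Tcp1 and 32.0 for Cct3. With the principal transcript of the annotation the values were 52.8 for Tcp1, 54.2 for Cct7 and 53.9 CPM per kilobase for Cct3, since their longest transcripts are much longer than the principal ones. Cct2 and Cct5 were the most abundant in controls by these lengths, although Cct6a has no principal transcript in the annotation and was not placed by it. By the median transcript length Cct2 was still first in controls (288 CPM per kilobase), but Cct4 (278) and Cct8 (226) were above Cct5 (208).

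The heat shock factors changed in opposite directions. Hsf1 (ENSMUSG00000022556), the main activator of the heat shock response, had 23.5, 24.3 and 23.2 CPM in controls and 45.4, 44.9 and 47.0 CPM with TMAO. The groups were tight and far apart, and it rose 1.94-fold (log2 fold change 0.95, SE 0.09, edgeR adjusted p = 5.67e-06). Its activity is set mainly by trimer formation and modification of the protein, which counts of its transcript do not show. Hsf2 (ENSMUSG00000019878), a related factor known from development and germ cells, had 19.6, 21.5 and 22.2 CPM in controls and 15.4, 15.4 and 14.7 CPM with TMAO. It fell in all TMAO libraries below all controls (0.717-fold, log2 fold change -0.48, SE 0.10, edgeR adjusted p = 0.00197). This fall was not seen once a trend on GC content was removed (log2 fold change -0.01, edgeR adjusted p = 0.953, range over alternatives 0.000297 to 0.953). With the length trend removed it did not pass by longest transcript (log2 fold change -0.23, edgeR adjusted p = 0.0531). By principal transcript it passed (-0.52, edgeR adjusted p = 0.000297).

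Chaperone genes outside the 34 were described from lists by role, and the genes with the smallest p in each, at most 2, are named. Of 77 tested of 83 listed, 44 rose, 11 fell and 22 did not pass, with a median log2 fold change of 0.39. Over all genes tested 33.0% rose and 32.7% fell, the shares to set beside each list here and below. Among partners of CCT (prefoldin, phosducin-like proteins and tubulin cofactors) 13 of 17 rose and 2 fell, with a median of 0.55. Pfdn2, a prefoldin subunit that delivers actin and tubulin chains to CCT, rose from 30.7 ± 1.15 to 63.5 ± 4.18 CPM (2.07-fold, edgeR adjusted p = 4.40e-06). Pdcl, a phosducin-like cofactor of CCT in the folding of G protein beta subunits, fell from 52.3 ± 1.96 to 31.0 ± 2.43 CPM (log2 fold change -0.76, edgeR adjusted p = 5.16e-05).

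Among other mitochondrial chaperones and proteases 8 of 14 rose and 2 fell, with a median of 0.31. Grpel1, the nucleotide exchange factor of mortalin, rose from 48.7 ± 4.42 to 199 ± 12.5 CPM (4.07-fold, edgeR adjusted p = 8.93e-08). Lonp1, a matrix protease, rose from 52.8 ± 1.77 to 113 ± 14.6 CPM (2.15-fold, edgeR adjusted p = 8.84e-06). Both act in the same compartment as the 3 mitochondrial members.

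Of the other HSP70 and HSP40 genes 11 of 20 rose and 4 fell, with a median of 0.28. Dnajb2 rose from 12.5 ± 1.08 to 39.5 ± 3.0 CPM (3.16-fold, edgeR adjusted p = 6.62e-07) and Dnajb5 from 11.6 ± 0.0634 to 26.5 ± 2.96 CPM (2.28-fold, edgeR adjusted p = 8.39e-06), both encoding J-domain proteins. Other HSP90 cochaperones gave 9 of 16 higher and 1 lower, with a median of 0.42. Ruvbl2, an AAA ATPase that works with HSP90 in assembling large complexes, rose from 26.8 ± 3.34 to 67.2 ± 1.90 CPM (2.51-fold, edgeR adjusted p = 2.72e-06), and Tomm34, which links HSP70 and HSP90 during protein import into mitochondria, from 38.5 ± 0.265 to 68.7 ± 1.60 CPM (1.78-fold, edgeR adjusted p = 1.00e-05).

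None of the 6 small heat shock protein genes tested rose. Beside Hspb1, of 5 tested of 8 other genes listed, 2 fell and 3 did not pass, with a median of -0.49, and both calls rest on low levels. Hspb6 fell from 5.19 ± 0.369 to 3.70 ± 0.534 CPM (edgeR adjusted p = 0.0224) and Hspb7 from 5.99 ± 0.747 to 3.48 ± 1.89 CPM (edgeR adjusted p = 0.0483). Each of these calls was lost when single libraries were left out: that of Hspb6 without control replicate 1 or 3 or TMAO replicate 1 or 2, and that of Hspb7 without any control replicate or without TMAO replicate 1 or 3.

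Of 5 tested regulators of the heat shock response and related factors 3 rose and none fell, with a median of 0.48. Atf5, a bZIP factor of the mitochondrial unfolded protein response, had 18.5, 20.0 and 15.8 CPM in controls and 142, 164 and 167 CPM with TMAO (8.71-fold, edgeR adjusted p = 1.81e-08). The Atf5 fold was larger than that of any of the 34 members.

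**Figure D4:**
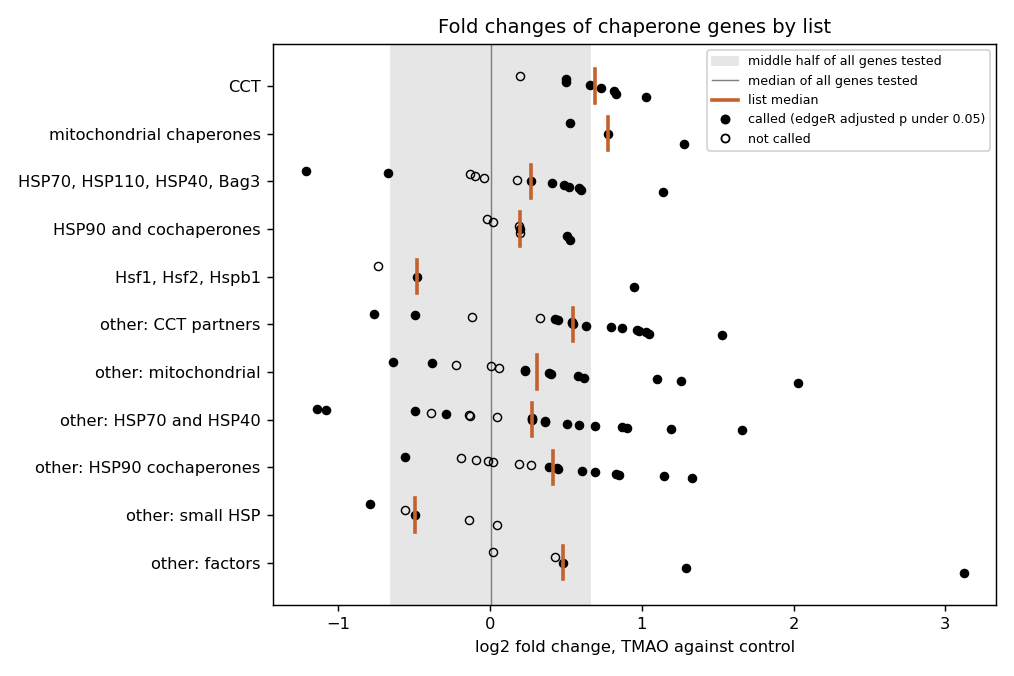
Log2 fold change of each member and each other chaperone gene tested (horizontal axis), by role. Filled points passed the edgeR test, orange bars are list medians and the grey band holds the middle 50% of all genes tested; the CCT members and the 3 mitochondrial members (top rows) lie mostly at or beyond its right edge, and Atf5 is the point at 3.12.

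Trends of fold change on transcript length and on GC content left the sign of most members alone. With the length trend removed the fold of Hspa4l shrank and that of Cdc37 grew by more than 1.5 times, and the small values of Hsph1, Dnaja1 and Ahsa1 changed sign. With the GC trend removed Hspa1b, Hsph1 and Dnaja1 changed sign. The mitochondrial genes and the 7 CCT subunits that rose kept their calls under both. Hsp90ab1 lost its call with the length trend removed (edgeR adjusted p = 0.166) and with the GC trend removed (0.0723), as did Hsf2 (0.0531 and 0.953). Dnajb1 lost its call with the GC trend removed (0.0779). Hsp90aa1 and Chordc1 passed as higher under both. Hsph1 and Dnaja1 passed as higher, and Hspb1 as lower, with the length trend removed. Cct4 passed as higher, and Fkbp4 as lower, with the GC trend removed.

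**Figure D5:**
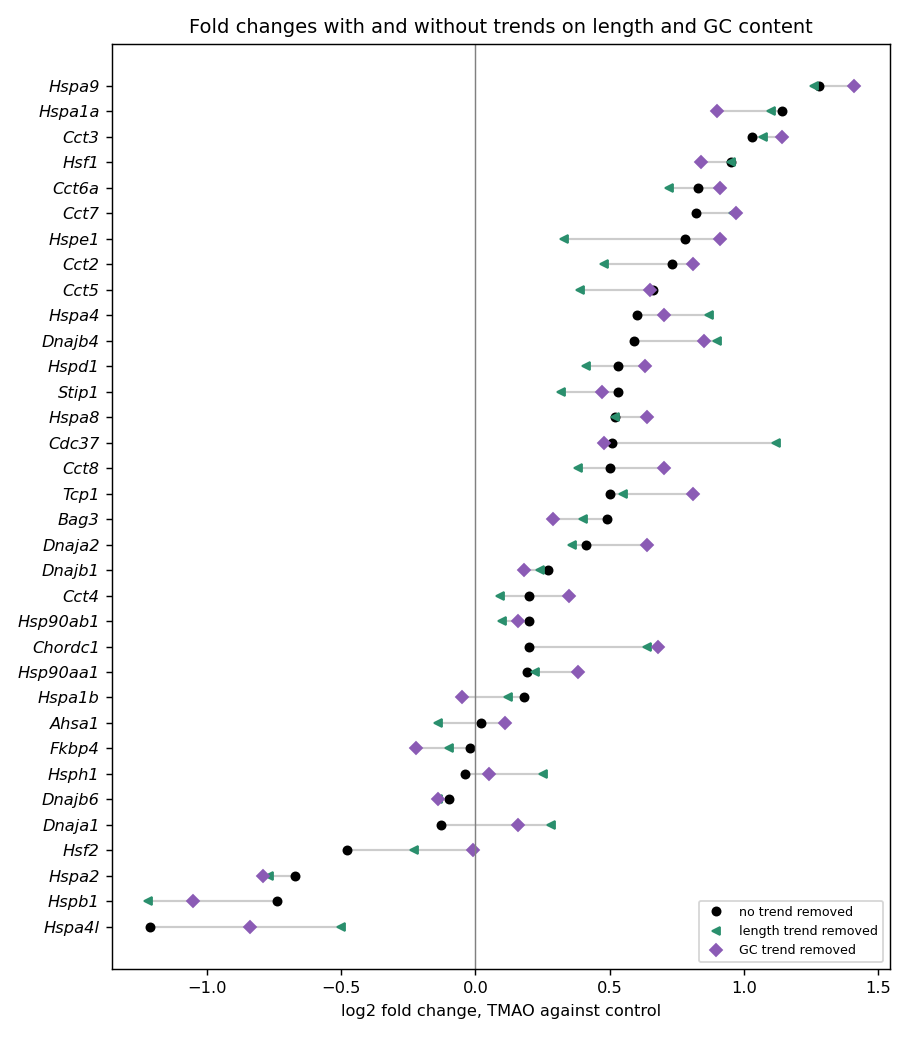
Log2 fold change of each member (horizontal axis) with no trend removed (black circles), with a trend on longest transcript length removed (green triangles) and with a trend on GC content removed (purple diamonds). Hspa4l, Cdc37, Chordc1, Hspb1, Hsf2 and Hspe1 move furthest, and Hspa9 and Cct3 stay above 1 in all 3.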

How the data were processed

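The deposited table, as the authors made it, holds unnormalized whole-number counts for 25751 Ensembl gene IDs in 6 libraries. Per the labels' protocols, the libraries were paired-end from poly(A)-selected RNA. Per the submitters' processing notes, reads were placed on GRCm39. Aligner, counter and strand setting were not given in the sources used here, and reads of a gene and an overlapping or antisense partner therefore cannot be told apart. Sequencers of 2 makers are named but tied to no library, and a platform difference cannot be told apart from TMAO.

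Totals per library ran from 37759007 to 41735109 counts. Symbols for 25386 IDs, and transcript lengths, came from the GENCODE annotation of build GRCm38; 365 IDs had none. edgeR 4.0.16 (R 4.3.3) kept 14626 genes with filterByExpr (minimum count 10), scaled by TMM and tested TMAO against control with glmQLFTest. P-values were Benjamini-Hochberg adjusted over all genes, threshold 0.05. CPM used the TMM library sizes. The procedure was tested on simulated data. All 34 members are named, and of each other list the 2 genes with the smallest p, except 1 gene that is not reported here. Members and lists were chosen with earlier results of these data known. Alternatives were other scalings, filters and tools (DESeq2 1.42.0, limma 3.58.1), trends on length and GC content, a fold of 1.5, a replicate block and each library left out. The ranges over alternatives include the test against a fold of 1.5, which is stricter. That test gave the upper end of every range printed except that of Hsf2, where removal of the GC trend did. The principal-transcript length was added after seeing the data. Promoter sequences are from RefSeq (GRCm38.p6), and protein sequences were not analysed here.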

Additional observations from a re-analysis of the deposited data

How the results depend on the processing

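Across 16 alternatives, leaving aside the test against a fold of 1.5 and the summed Hspa1 pair, 21 of the 24 member calls were kept in every one, and the exceptions were Dnajb1, Hsp90ab1 and Hsf2. The count of members that rose was 21, and it was 19 to 22 with 1 library left out and 7 in the test against a fold of 1.5. The count that fell was 3, and it was 3 to 4 with 1 library left out, 1 in the test against a fold of 1.5 and 6 with the trend on principal-transcript length removed; Cct6a, with no principal transcript in the annotation, was not tested there. Of the 10 members that did not pass, only Hspa1b passed in no alternative.

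With the replicate number as a block 20 members rose and 3 fell, and Hsp90ab1 lost its call (edgeR adjusted p = 0.0697). The labels do not say whether the numbers pair the libraries, and 3 libraries per group are too few for the values to decide it. Deviations from the group means correlated at -0.07 to 0.13 between same-numbered libraries, and 3 of 6 libraries correlated best with their own number.

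Small log2 fold changes turned sign. Hspa1b was -0.05 with the GC trend removed and -0.09 to 0.43 with 1 library left out. Hsph1 was 0.25 and 0.19 with the length trend removed (longest and principal transcript), 0.05 with the GC trend removed and -0.10 to 0.02 with 1 library left out. Dnaja1 was 0.28, 0.34 and 0.16 in the same 3 trend settings. Ahsa1 was -0.01 with library size as the only scaling, -0.14 and -0.37 with the length trends removed and -0.06 to 0.12 with 1 library left out, and Fkbp4 was -0.08 to 0.04 with 1 library left out. The difference in the log2 ratio of Hsp90aa1 to Hsp90ab1 was -0.13 to 0.06, and that of the Hspa1 pair to Hspa8 -0.13 to 0.15, with 1 library left out. The cause was not tested. Depth limits Hspa1a, Hspa1b and Hspb1, which rest on few counts per library.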
